A study of Schizosaccharomyces pombe with 16 samples.

Results

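Fission yeast has a large group of protein kinase genes whose names begin with ppk, given to predicted kinases by a systematic survey of its kinome. The genes described here are the rows of the count table named ppk followed by a number. There are 24 such rows among 7014 genes, and in 23 of them the name and the systematic identifier belong together. The row named ppk33 carries the identifier of another gene, a predicted GTPase-activating protein, so ppk33 is given apart below. Each of the 23 genes passed the filter on low counts, with 2 to 3941 counts per library.

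RNA was sequenced from Schizosaccharomyces pombe in 8 groups of 2 replicates, 16 libraries in all. S52A cells (genotype eIF2alfa.S52A:Ura4 ura4-D18 h-) have an alanine in place of the serine that is phosphorylated in the translation initiation factor eIF2α, and WT cells are the strain 972 h-. Both strains were grown in the rich medium YES and sampled at 6 h, on early entry into stationary phase, and at 0 h, in exponential growth. At each point, polysome fractions (mRNA in the part of a sucrose gradient that holds several ribosomes) and total mRNA were collected. The mutant differs from WT also in its ura4 marker, so the 2 changes cannot be told apart. The labels place the replicates in 2 experiments, A and B, without saying whether these were separate cultures, so p-values measure only the spread between these samples. The main test does not pair samples by experiment, and results with the experiment as a block are given beside it.

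Protein kinases pass signals by adding phosphate to other proteins, and in yeast several of them link nutrients to growth, autophagy and survival in stationary phase. Among the ppk genes, ppk18 and ppk31 encode kinases of the Greatwall and Rim15 type, which in budding yeast act in the entry into quiescence. ppk19 is listed in RefSeq as vps15 and encodes the partner of the phosphatidylinositol 3-kinase in vacuolar sorting and autophagy. ppk9 is a relative of the energy sensor AMP-activated kinase, ppk15 belongs to the DYRK family with budding yeast Yak1, and ppk29, ppk30 and ppk38 are related to the Ark1/Prk1 kinases of actin patches. ppk21 is listed as pdk1, ppk11 is related to the p21-activated kinases, and ppk26 and ppk3 encode proteins with a kinase-like domain. For the others only the predicted kinase activity is given here.

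The libraries held 11279417 to 20522997 counts. Cytosolic ribosomal protein genes took 26.2 to 51.1% of the counts in polysome fractions and 12.2 to 24.2% in total mRNA, and the ppk genes together took 0.0362 to 0.097% in polysome fractions and 0.170 to 0.249% in total mRNA. The S52A libraries at 6 h differed between replicates. In polysome fractions, ribosomal protein genes took 44.2% of replicate 2 and 30.0% of replicate 1, and in total mRNA they took 21.6% of replicate 2 and 15.0% of replicate 1. The part of this difference in the S52A results at 6 h was not tested beyond the values without each library.

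Levels were first compared between the genes in total mRNA, as CPM (counts scaled to library size with TMM factors) per kilobase of annotated transcript. In WT cells at 0 h, ppk21 stood at 49.5 ± 1.44 and ppk29 at 42.0 ± 6.16 CPM per kilobase (SD, n = 2), which differed by more than either SD. ppk22 (34.6 ± 2.10), ppk26, ppk3, ppk16, ppk11, ppk6 and ppk25 (29.9 ± 1.78) followed, and in this stretch no gene differed from the next by more than the larger SD of the pair. At the low end were ppk1 (9.28 ± 0.184), ppk19 (6.46 ± 0.034), ppk24 (5.15 ± 0.931) and ppk31 (0.494 ± 0.096). ppk31 was the lowest of the 23 genes in all 4 strain and time groups, at 1.66 ± 0.858 in S52A cells at 6 h, 0.584 ± 0.021 in S52A cells at 0 h, 2.68 ± 1.19 in WT cells at 6 h and 0.494 ± 0.096 in WT cells at 0 h. ppk15, in the middle of the order in WT cells at 0 h, had the highest mean of the 23 in both strains at 6 h, with 53.0 ± 18.5 in S52A cells and 49.4 ± 6.26 in WT cells. The SD of ppk15 reached down to the mean of ppk29 in both strains (38.2 ± 3.35 in S52A cells and 43.4 ± 4.72 in WT cells).

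**Figure D1:**
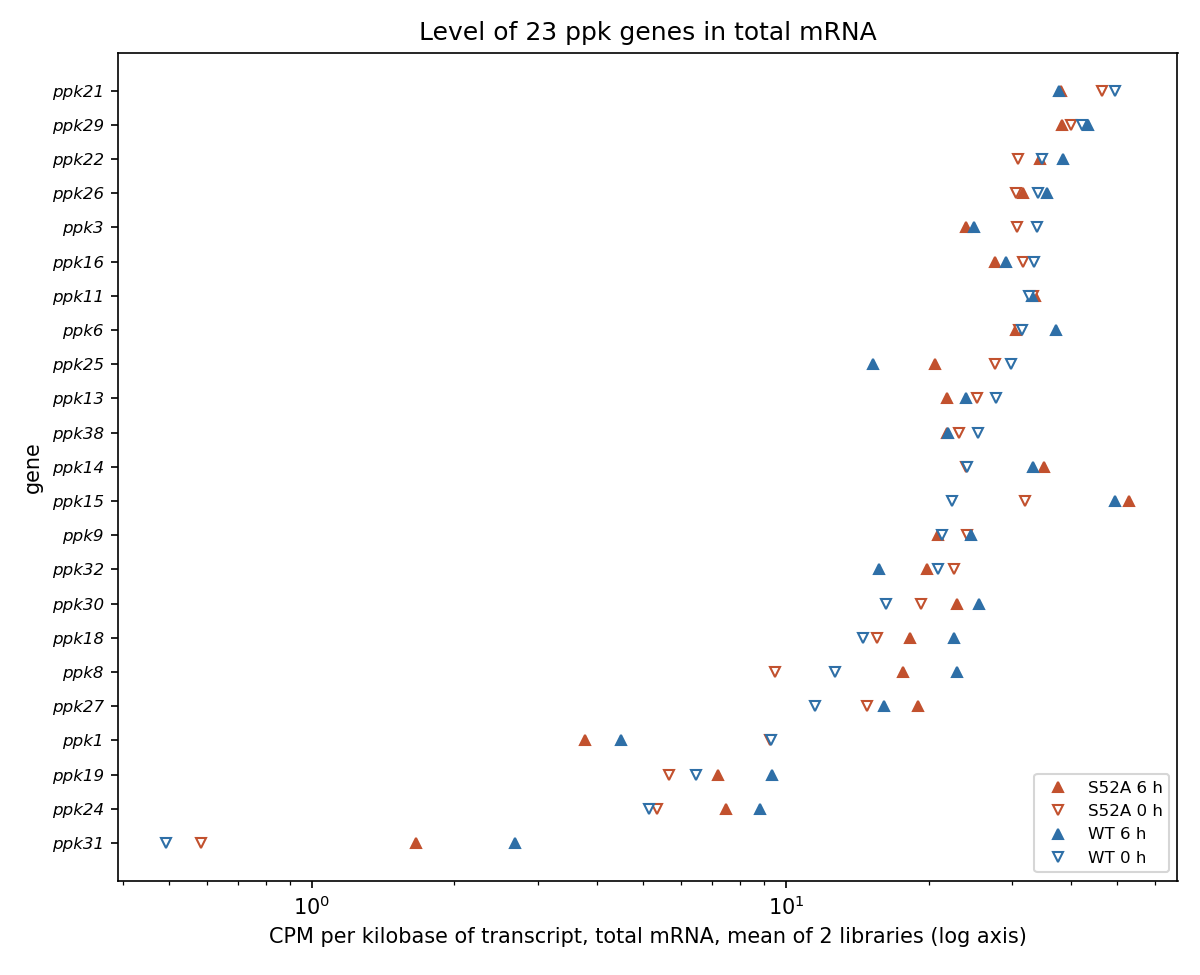
Level of each of the 23 ppk genes in total mRNA, in CPM per kilobase of transcript on a log axis. Points are means of 2 libraries, filled at 6 h and open at 0 h, orange for S52A and blue for WT. ppk31 is the lowest gene in each group and lies far below the rest at 0 h. At 6 h it lies nearer to ppk1 (2.68 against 4.49 in WT cells, 1.66 against 3.77 in S52A cells). The 6 h points of ppk15 lie right of the other 6 h points of their strain.

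The first comparison asks which kinase mRNAs changed in polysome fractions as the cells entered stationary phase. In S52A polysomes ppk1 fell at 6 h and no ppk gene was called higher, so 1 of 23 genes was called. Over all 6170 genes tested, 3.58% were called lower and 3.4% higher, at an adjusted p under 0.05 in edgeR's quasi-likelihood test with Benjamini-Hochberg adjustment. The median log2 change of the 23 genes was 0.30, beside 0 over all genes. With library size alone the median of all genes moved up by 0.59, and 13 ppk genes were called higher and 1 lower, beside 30.8% of all genes called higher and 1.09% lower. Unadjusted, 7 ppk genes had a p under 0.05, beside 24.2% of all genes. ppk1 (SPAC110.01), a predicted kinase, had 2.42 and 3.59 CPM at 6 h, against 15.9 and 5.79 CPM at 0 h. The 6 h values were both lower, but the 0 h replicates differed widely. The log2 change was -1.81 ± 0.43 (SE; edgeR adjusted p = 0.031), with -2.72 in experiment A and -0.69 in experiment B. Without replicate 1 of S52A polysomes at 0 h the log2 change was -0.94 (edgeR adjusted p = 0.22), and without replicate 1 at 6 h it was -1.55 (edgeR adjusted p = 0.20), so it lost the call without either library of experiment A.

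ppk8, a predicted kinase, had the largest estimate above 0 in S52A polysomes, with 25.2 and 14.9 CPM at 6 h, against 9.80 and 4.19 CPM at 0 h. Its log2 change of 1.57 ± 0.47 (SE) missed the threshold (edgeR adjusted p = 0.060), and it passed with the experiment as a block (adjusted p = 0.0055) and in DESeq2 (adjusted p = 0.016). In WT polysomes ppk8 had 26.4 and 23.03 CPM at 6 h, against 16.4 and 8.68 CPM at 0 h. With the block, 3 of 23 genes were called in S52A polysomes (ppk8 and ppk15 higher, ppk1 lower), beside 13.7% of all genes. DESeq2 called ppk8 higher and ppk1 and ppk21 lower, beside 13.6% of all genes called. Replicate 2 of S52A polysomes at 6 h was the library with the high share of ribosomal protein genes. Without it, the log2 change was 1.91 for ppk8, -2.11 for ppk1 and -1.34 for ppk32, beside -0.56 for ppk32 with all libraries.

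The genes that rose in WT polysomes, described next, did not pass the test in S52A polysomes. ppk15 had 124 and 81.4 CPM at 6 h, against 71.1 and 57.3 CPM at 0 h (log2 change 0.68 ± 0.30, edgeR adjusted p = 0.19, and 0.028 with the block). ppk31 had 2.83 and 2.10 CPM at 6 h, against 0.408 and 1.60 CPM at 0 h, from 28 and 21 counts at 6 h and 2 and 13 counts at 0 h. ppk6 had 54.8 and 42.7 CPM at 6 h, against 38.0 and 31.9 CPM at 0 h, and the groups did not overlap. ppk19 had 24.3 and 14.5 CPM at 6 h, against 18.0 and 13.8 CPM at 0 h, and its groups overlapped.

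In WT polysomes, ppk15, ppk31, ppk19 and ppk6 rose at 6 h and ppk1 fell, so 4 of 23 genes were called higher and 1 lower. Over all genes tested, 8.57% were called higher and 8.9% lower. The median log2 change of the 23 genes was 0.38, beside -0.01 over all genes tested. With library size alone the median of all genes moved up by 0.51, and 14 ppk genes were called higher and 1 lower, beside 29.8% of all genes called higher and 3.45% lower. Rises are given relative to the TMM scaling. With any 1 of the 4 WT polysome libraries left out, the log2 change ran from 1.01 to 1.44 for ppk15 and from 1.29 to 2.19 for ppk31. It ran from 0.76 to 0.95 for ppk19, from 0.46 to 0.86 for ppk6 and from -2.72 to -2.09 for ppk1. Such a fit leaves 1 library in a group, and the share of all genes called in it was not counted. Each of the 4 rises lost its call when any 1 of the 4 WT polysome libraries was left out, while the fall of ppk1 kept it. With the experiment as a block, 8 of the 23 were called, 7 of them higher, beside 27.4% of all genes in either direction: ppk8 (log2 change 1.05, adjusted p = 0.0083), ppk22 (0.56, adjusted p = 0.017) and ppk30 (0.81, adjusted p = 0.014, all edgeR) were added.

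ppk1 had 3.12 and 2.72 CPM in WT polysomes at 6 h, against 19.3 and 12.4 CPM at 0 h. Both 6 h libraries lay far below both 0 h libraries. The log2 change was -2.43 ± 0.41 (SE), a ratio of 0.185 at 6 h over 0 h (edgeR adjusted p = 0.0042). The polysome counts behind these values were 35 and 39 at 6 h, against 145 and 169 at 0 h.

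ppk15 (SPAC823.03), the DYRK-type kinase, had 110 and 103 CPM in WT polysomes at 6 h, against 53.0 and 39.2 CPM at 0 h. The 6 h libraries were both higher, and the log2 change was 1.21 ± 0.30 (SE; edgeR adjusted p = 0.018). ppk31 (SPBC725.06c), of the Rim15 type, had 6.07 and 3.35 CPM at 6 h, against 1.33 and 1.40 CPM at 0 h, a log2 change of 1.77 ± 0.56 (edgeR adjusted p = 0.047). Its groups did not overlap either, but the counts were low, with 68 and 48 at 6 h and 10 and 19 at 0 h. ppk19 (SPBC119.07), the Vps15 kinase, had 30.2 and 27.3 CPM at 6 h, against 15.9 and 16.3 CPM at 0 h (log2 change 0.83 ± 0.24, edgeR adjusted p = 0.033). ppk6 (SPAC1805.01c), a predicted kinase, had 64.4 and 67.8 CPM at 6 h, against 48.2 and 36.4 CPM at 0 h (log2 change 0.65 ± 0.19, edgeR adjusted p = 0.033). In both genes the replicates at 6 h lay close together and above both 0 h values.

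The remaining 18 genes did not pass the test in WT polysomes. Their log2 changes ran down from 0.998 for ppk8 over 0.75 for ppk30, 0.66 for ppk14, 0.56 for ppk22, 0.51 for ppk27, 0.49 for ppk18 and 0.44 for ppk29 to 0.38 for ppk24 and 0.32 for ppk26. Nearer to 0 were ppk11 (0.12), ppk16 (0.11), ppk38 (0.05), ppk9 (-0.08) and ppk13 (-0.12). Below them were ppk3 (-0.22), ppk21 (-0.22), ppk25 (-0.45) and ppk32 (-0.72). In 14 of the 23 genes both experiments gave a change above 0, and in 5 both gave one below 0. The shares over all genes were not counted.

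**Figure D2:**
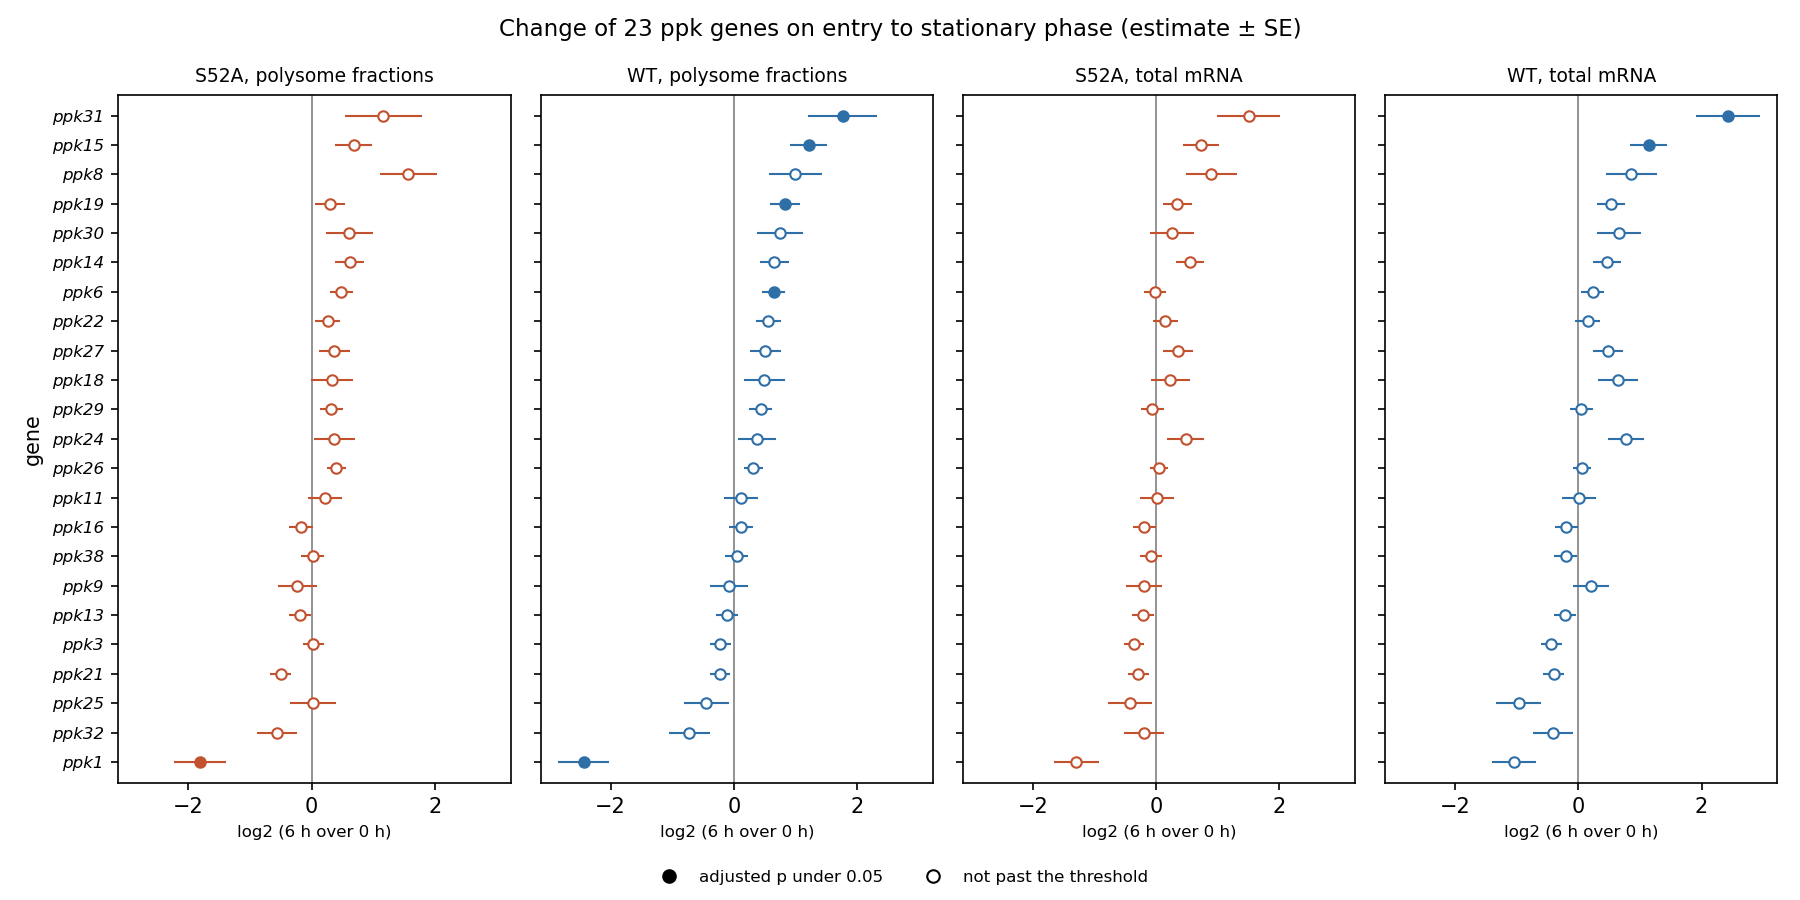
Log2 change from 0 h to 6 h of the 23 ppk genes, with its SE, in polysome fractions and total mRNA of S52A (orange) and WT (blue) cells. Filled points passed an adjusted p of 0.05; in S52A polysomes this is ppk1, in WT polysomes ppk31, ppk15, ppk19, ppk6 and ppk1, in S52A total mRNA there is none, and in WT total mRNA these are ppk31 and ppk15.

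Whether the polysome change itself differed between the strains was tested directly. The difference, S52A minus WT, passed the test for none of the 23 genes, and for 0% of all genes tested. At an unadjusted p under 0.05 there were 0 ppk genes, beside 5.59% of all genes. DESeq2 also called 0 ppk genes, and its share of all genes was not counted. Estimates were -0.54 ± 0.34 (SE) for ppk19, -0.53 ± 0.42 for ppk15 and 0.62 ± 0.59 for ppk1, so a difference of about 1 log2 unit was within 2 SE for these genes. The median of the 23 differences was -0.12, beside 0.02 over all genes.

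**Figure D3:**
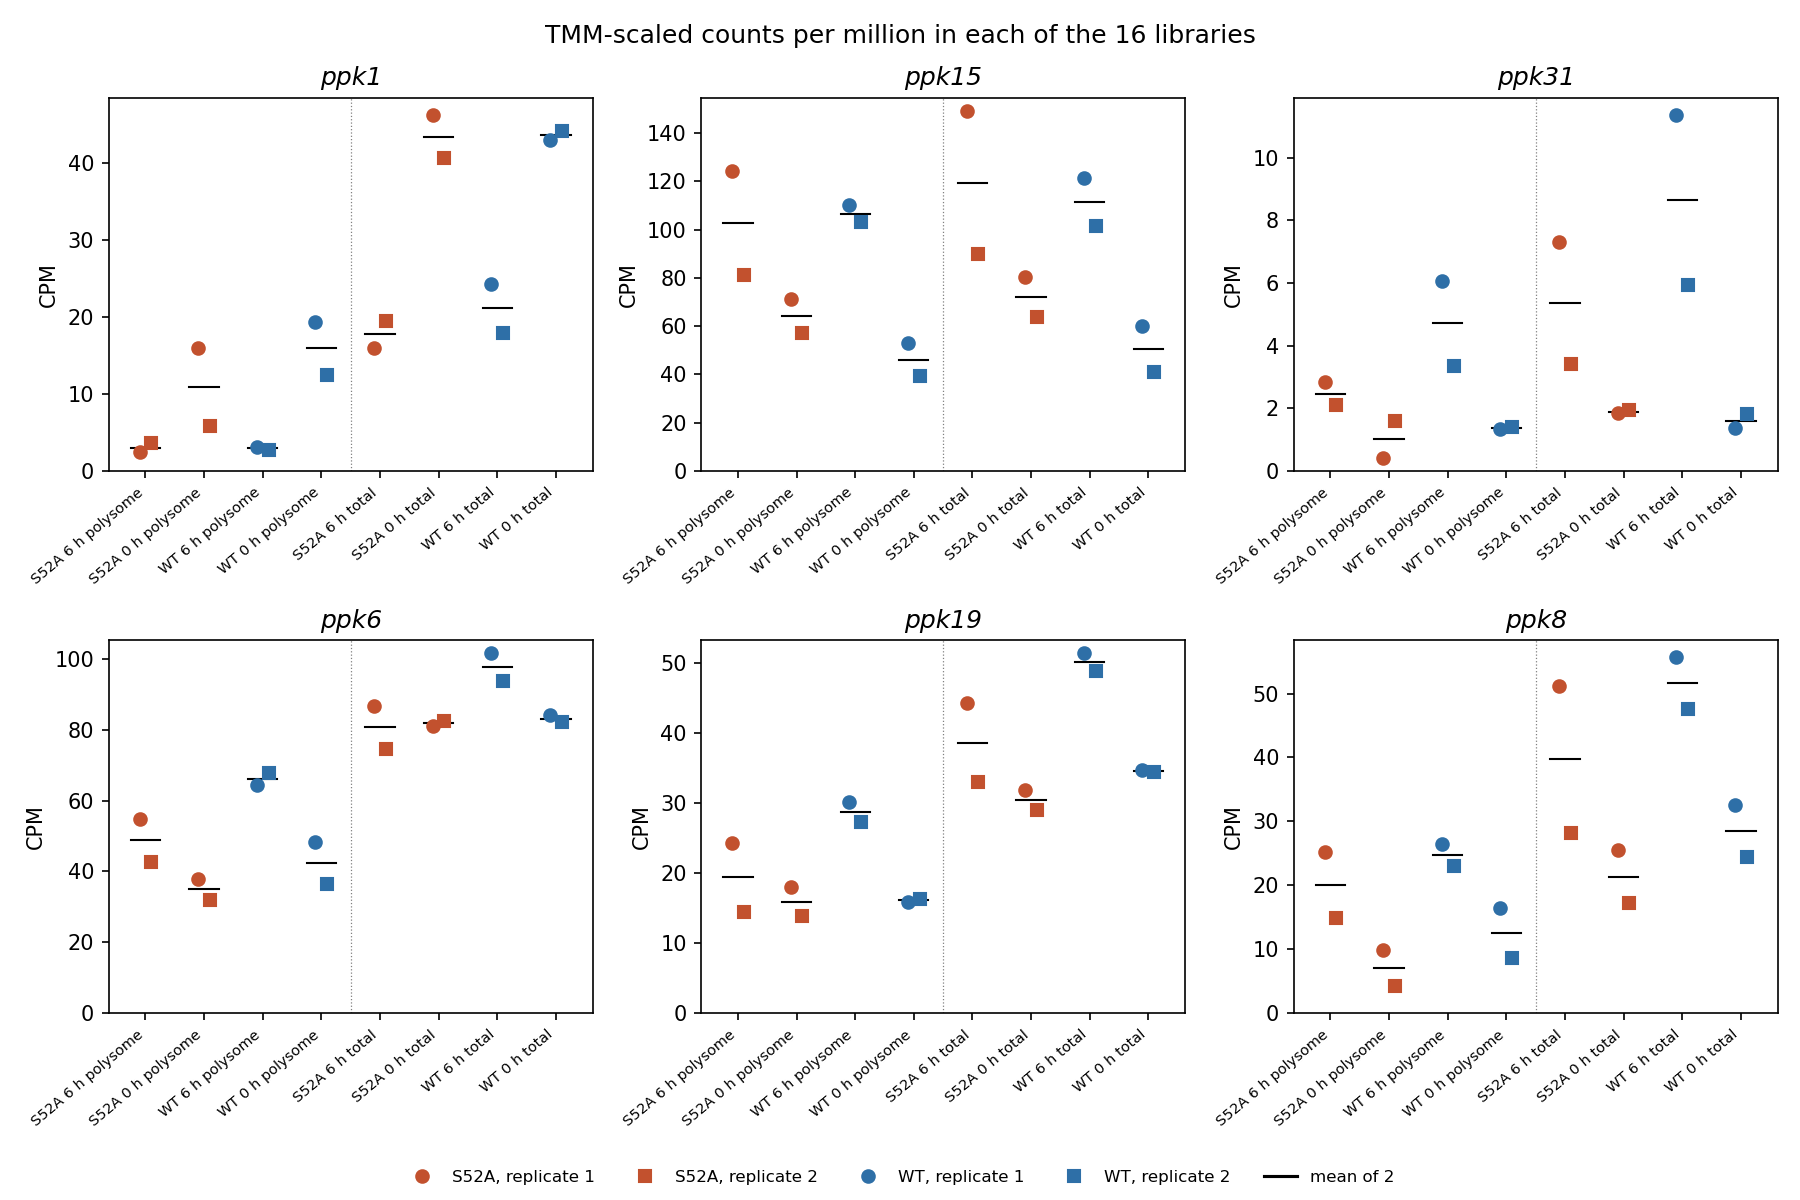
CPM of 6 ppk genes in each of the 16 libraries, polysome fractions left of the dotted line and total mRNA right of it, with the mean of 2 as a bar. ppk1 is lower, and ppk15 and ppk31 are higher, at 6 h than at 0 h in both strains and both fractions by the means of 2 libraries, and the 2 S52A replicates at 6 h lie far apart in total mRNA for ppk15, ppk31 and ppk8.

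No ppk gene passed the test in total mRNA of S52A cells, where edgeR called 2.87% of all genes. Without adjustment, 4 ppk genes had a p under 0.05, beside 18.2% of all genes. DESeq2 called 1, ppk1, beside 7.6% of all genes. With the block 3 were called, ppk8 and ppk15 higher and ppk1 lower, beside 7.49% of all genes. ppk1 had 15.98 and 19.4 CPM at 6 h, against 46.2 and 40.6 CPM at 0 h, with no overlap (log2 change -1.29 ± 0.36, edgeR adjusted p = 0.083, 0.037 with the block and 0.015 in DESeq2). ppk31 had 7.33 and 3.41 CPM at 6 h, against 1.84 and 1.94 CPM at 0 h (log2 change 1.5 ± 0.51, edgeR adjusted p = 0.14), and ppk15 had 149 and 90.0 CPM, against 80.3 and 64.0 CPM (log2 change 0.73 ± 0.30, edgeR adjusted p = 0.22, 0.028 with the block). The estimates of these 3 genes had the same sign as in WT cells in both experiments.

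In total mRNA of WT cells, ppk31 and ppk15 rose and no ppk gene fell, beside 6% of all genes called higher and 6.01% called lower. ppk31 had 11.4 and 5.94 CPM at 6 h, against 1.38 and 1.82 CPM at 0 h. This was the largest rise of any ppk gene over time, 2.43 ± 0.52 on the log2 scale (SE; edgeR adjusted p = 0.015), or a 5.38-fold level at 6 h over 0 h. It kept the call only without replicate 2 of WT total mRNA at 6 h (adjusted p = 0.029), and lost it without each of the other 3 libraries, with adjusted p from 0.098 to 0.14. ppk15 had 121 and 101.4 CPM at 6 h, against 60.2 and 40.8 CPM at 0 h (log2 change 1.14 ± 0.30, edgeR adjusted p = 0.030), and lost the call without any 1 of the 4 libraries. Unadjusted, 8 ppk genes had a p under 0.05, beside 29.5% of all genes.

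ppk1 in total mRNA had 24.3 and 17.9 CPM at 6 h in WT cells, against 42.9 and 44.2 CPM at 0 h. Its log2 change of -1.05 ± 0.36 (SE) had an adjusted p of 0.077 in edgeR, 0.035 with the block and 0.027 in DESeq2. ppk25, listed also as kin2, had 32.2 and 29.2 CPM at 6 h, against 57.6 and 62.7 CPM at 0 h (log2 change -0.97 ± 0.36, edgeR adjusted p = 0.095, 0.023 with the block and 0.033 in DESeq2). In both genes the 6 h and 0 h values were well apart. With the block, 7 of 23 genes were called, beside 22.3% of all genes: ppk8, ppk15, ppk24, ppk30 and ppk31 higher, and ppk1 and ppk25 lower. DESeq2 called 6 of the 23, ppk15 and ppk31 higher and ppk1, ppk3, ppk21 and ppk25 lower, beside 19.8% of all genes called.

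ppk6 and ppk19, called in WT polysomes, did not pass in WT total mRNA. ppk6 had 102 and 93.8 CPM at 6 h, against 84.2 and 82.1 CPM at 0 h (log2 change 0.23 ± 0.18, edgeR adjusted p = 0.44). ppk19 had 51.4 and 48.9 CPM at 6 h, against 34.7 and 34.5 CPM at 0 h (log2 change 0.53 ± 0.23, edgeR adjusted p = 0.15). Both genes were higher in both 6 h libraries.

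Other protein kinases that carry names outside the ppk series were counted beside them, 82 genes tested of 86 listed. In S52A polysomes 4 of the 82 were called higher and 0 lower, with a median log2 change of 0.01, led by hri1, a kinase of eIF2α (3.07 ± 0.50) and oca2 (2.34 ± 0.52). In WT polysomes 10 of the 82 were called higher and 2 lower, with a median log2 change of 0.11. The largest called rises were those of mug27 (log2 change 3.10 ± 0.88) and of hri1 (2.51 ± 0.47). In total mRNA 4 were called higher and 1 lower in S52A cells, led by mug27 (3.66 ± 0.75) and hri1 (2.63 ± 0.47). The counts were likewise 4 and 1 in WT cells, led by hri1 (2.30 ± 0.46) and by the fall of mik1, an inhibitor of the Cdc2 kinase (-2.19 ± 0.39). Over all 6170 genes tested, 3.4% were called higher and 3.58% lower in S52A polysomes, and 8.57% and 8.9% in WT polysomes. In S52A total mRNA 131 of the 6170 genes were called higher and 46 lower, and in WT total mRNA 6% and 6.01%.

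The change in translation efficiency (TE) was taken as the change of the polysome value minus that of total mRNA, from 0 h to 6 h. In S52A cells no ppk gene passed the test, as 0% of all genes did, and at an unadjusted p under 0.05 there were 0 ppk genes beside 1.6% of all genes. In WT cells no ppk gene passed the test either, beside 0.0162% of all genes. At an unadjusted p under 0.05 there was 1 ppk gene, ppk1, beside 2.53% of all genes. DESeq2 called 0 ppk genes in both, and its share of all genes was not counted. The TE change of ppk1 in WT cells was -1.39 ± 0.54 (SE), with -1.81 in experiment A and -0.89 in experiment B (edgeR adjusted p = 1.0). The median TE change of the 23 genes was 0.07 in S52A cells and 0.14 in WT cells, beside 0.01 in S52A cells and 0.02 in WT cells over all genes tested.

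The strains were then compared at each time, in the same libraries as the changes over time. At 6 h no ppk gene passed the test between S52A and WT polysomes, where 0.924% of all genes did. At an unadjusted p under 0.05 there were 2, beside 19.1% of all genes. These were ppk19, with 24.3 and 14.5 CPM in S52A cells against 30.2 and 27.3 CPM in WT cells (log2 difference -0.57 ± 0.24, edgeR adjusted p = 0.22), and ppk6, with 54.8 and 42.7 CPM in S52A cells against 64.4 and 67.8 CPM in WT cells (-0.44 ± 0.19, edgeR adjusted p = 0.22). Both S52A values lay below both WT values in these 2 genes. The estimate was below 0 in 16 of the 23 genes, beside 61 of the 82 other kinases and 3093 of the 6170 genes tested. The median was -0.18, beside -0.19 over the 82 other kinases and -9e-04 over all genes. With library size alone, the median of all genes itself moved to -0.35, and that of the ppk genes was -0.54. With this scaling 0 of the 23 estimates lay above 0, and the share over all genes was not counted. In that fit 1 ppk gene, ppk6, was called lower, beside 4.13% of all genes called. With 1 library at a time left out, the log2 difference ran from -0.99 to -0.24 for ppk19 and from -0.63 to -0.27 for ppk6. The value of -0.99 came without replicate 1 of S52A polysomes at 6 h.

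In total mRNA at 6 h, 0.519% of all genes and no ppk gene passed the test between S52A and WT cells. At an unadjusted p under 0.05 there were 0 ppk genes, beside 13% of all genes. The largest estimates were -0.69 ± 0.48 (SE) for ppk31 and 0.44 ± 0.36 for ppk25. At 0 h the strains did not differ by the test in any ppk gene. In polysomes 0% of all genes passed, with 0 ppk genes and 8.91% of all genes at an unadjusted p under 0.05. In total mRNA 0.0162% passed, with 0 ppk genes and 2.04% of all genes at an unadjusted p under 0.05. DESeq2 called 0 ppk genes in these 4 comparisons, beside 6.19% of all genes in polysomes and 2.92% in total mRNA at 6 h. Its share of all genes at 0 h was not counted. ppk15 had the largest estimate above 0 at 0 h in both fractions, 0.48 ± 0.30 in polysomes and 0.51 ± 0.30 in total mRNA. Of the 82 other kinases, spk1, the MAP kinase of the mating pathway, was called lower in S52A cells at 6 h in polysomes (-1.95 ± 0.30) and in total mRNA (-1.88 ± 0.29).

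**Figure D4:**
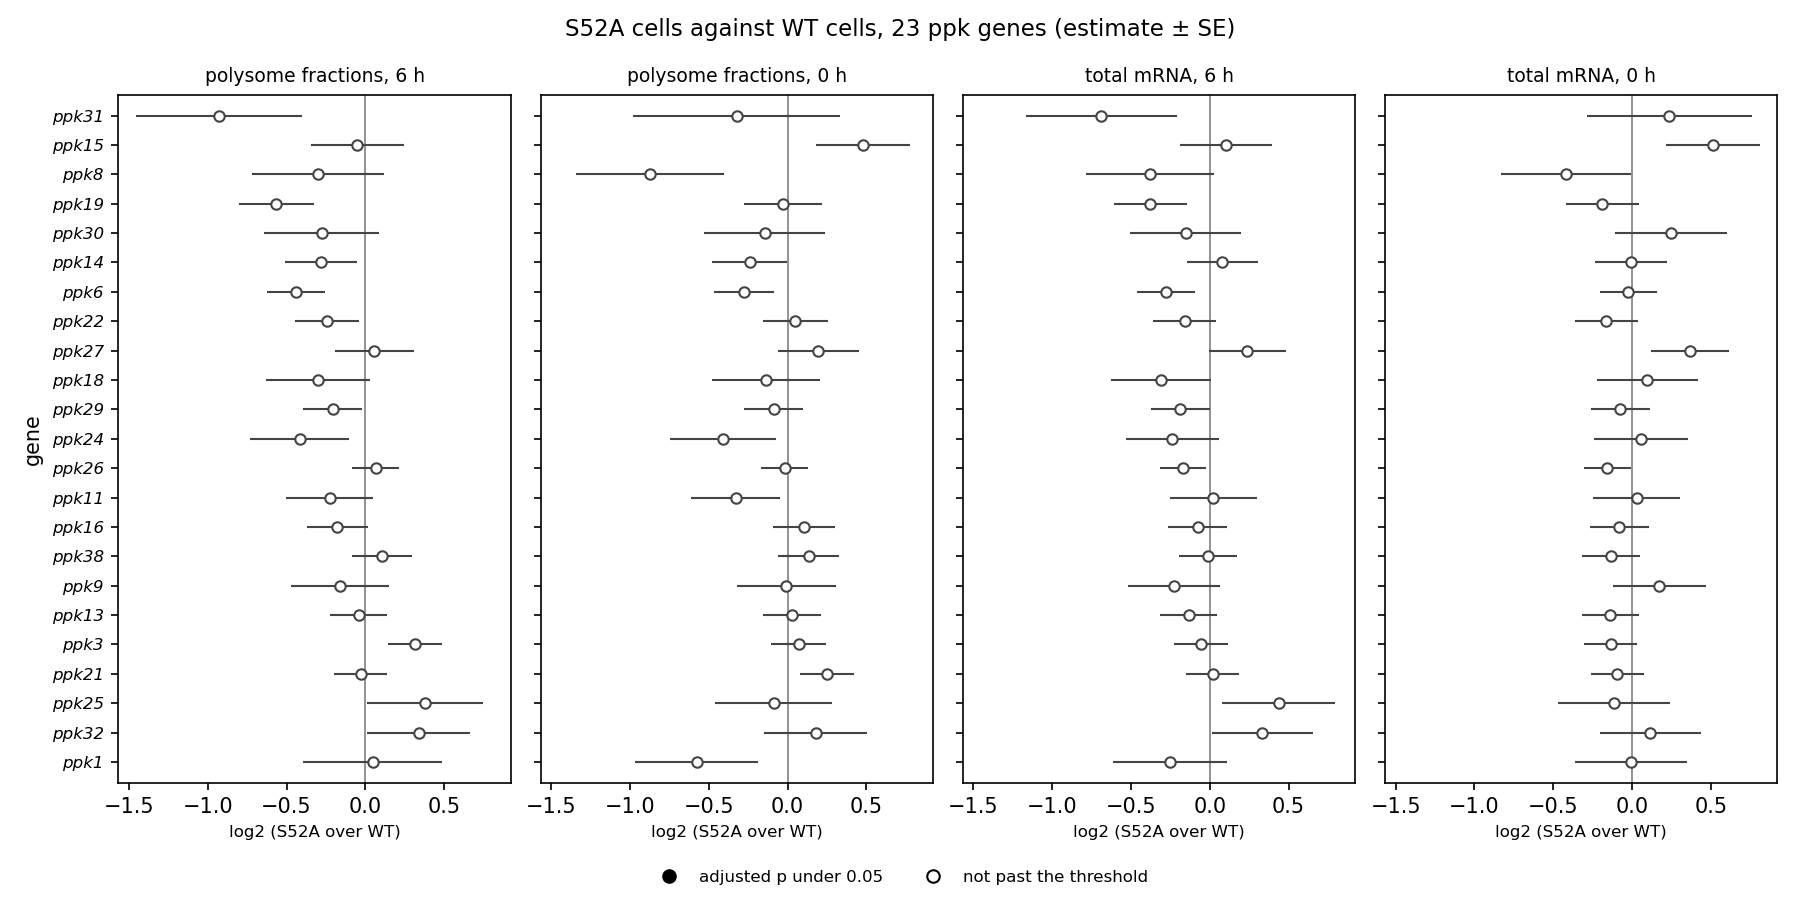
Log2 difference between S52A and WT cells for the 23 ppk genes, with its SE, in polysome fractions and total mRNA at 6 h and 0 h. All points are open, since none passed an adjusted p of 0.05. In polysomes at 6 h, 16 of the 23 lie below 0, beside 61 of the 82 other kinases and 3093 of the 6170 genes tested.

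The ppk mRNAs were mostly scarcer in polysome fractions than in total mRNA. Over the mean of the 4 strain and time groups, 18 of the 23 genes were called lower and 2 higher, beside 35.8% of all genes called lower and 32.2% called higher. The median log2 difference of polysome fraction over total mRNA was -0.75 for the ppk genes, -0.71 for the other kinases (61 of 82 called lower, 5 higher) and -0.07 over all genes tested. Among the other kinases, wee1 (-2.59 ± 0.14) and cdr1 (-2.38 ± 0.14), both regulators of mitotic entry, had the largest called differences. These values are relative to the scaling: with library size alone, the median of all genes lay at -1.26, lower by 1.19 than under TMM scaling, that of the ppk genes lay at -1.93, and 0 ppk genes were called higher and 23 lower, beside 6.03% of all genes called higher and 80.5% lower.

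ppk1 had 2.42 to 19.3 CPM over the 8 polysome libraries (median 4.69), against 15.98 to 46.2 CPM over the 8 total mRNA libraries (median 32.4). Its log2 difference of -2.23 ± 0.20 (SE; edgeR adjusted p = 8.5e-07) was the largest among the ppk genes. By group, on the log2(CPM + 1) scale, it was -2.23 in S52A cells at 6 h, -2.05 in S52A cells at 0 h, -2.48 in WT cells at 6 h and -1.43 in WT cells at 0 h. These values stood at the percentiles 1.09, 2.5, 0.259 and 4.38 of all genes tested, in that order of groups. ppk30, of the Ark1/Prk1 type, had 13.3 to 30.6 CPM in polysomes (median 21.9), against 43.6 to 107 CPM in total mRNA (median 74.9), a log2 difference of -1.76 ± 0.19. ppk9 had 11.1 to 19.7 CPM in polysomes (median 15.9), against 32.2 to 54.0 CPM in total mRNA (median 42.7), a log2 difference of -1.49 ± 0.15. ppk18, of the Greatwall type, had 16.3 to 36.0 CPM in polysomes (median 29.4), against 53.1 to 112 CPM in total mRNA (median 71.2), a log2 difference of -1.47 ± 0.17. In ppk30, ppk9 and ppk18 every polysome library lay below every total mRNA library, and in ppk1 the ranges overlapped over both strains and times. Within each strain and time group, both polysome values of ppk1 lay below both total mRNA values.

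ppk13 and ppk26 were called higher in polysome fractions with TMM scaling, and both were lower with library size alone (log2 difference -0.41 for ppk13 and -0.88 for ppk26). ppk13, a predicted kinase, had 39.5 to 59.1 CPM in polysomes (median 54.5), against 26.0 to 34.5 CPM in total mRNA (median 31.0), a log2 difference of 0.79 ± 0.09 (SE; edgeR adjusted p = 7.7e-06). ppk26 had 60.4 to 89.7 CPM in polysomes (median 79.0), against 55.7 to 68.6 CPM in total mRNA (median 63.4), a log2 difference of 0.30 ± 0.07 (edgeR adjusted p = 0.0030). The ranges of ppk13 did not overlap and those of ppk26 did over both strains and times. Within each strain and time group, both polysome values of ppk26 lay above both total mRNA values. ppk15 (-0.15 ± 0.15), ppk27 (-0.07 ± 0.13) and ppk21 (0.13 ± 0.08) did not pass the test. The other called genes ran from -1.25 for ppk16 and ppk24 to -0.41 for ppk22, and the call of ppk31 (-0.75 ± 0.27) was lost in 7 of 16 leave-one-out fits. The log2(CPM + 1) difference was below 0 in all 4 strain and time groups for 19 of the 23 genes, and the share over all genes was not counted.

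**Figure D5:**
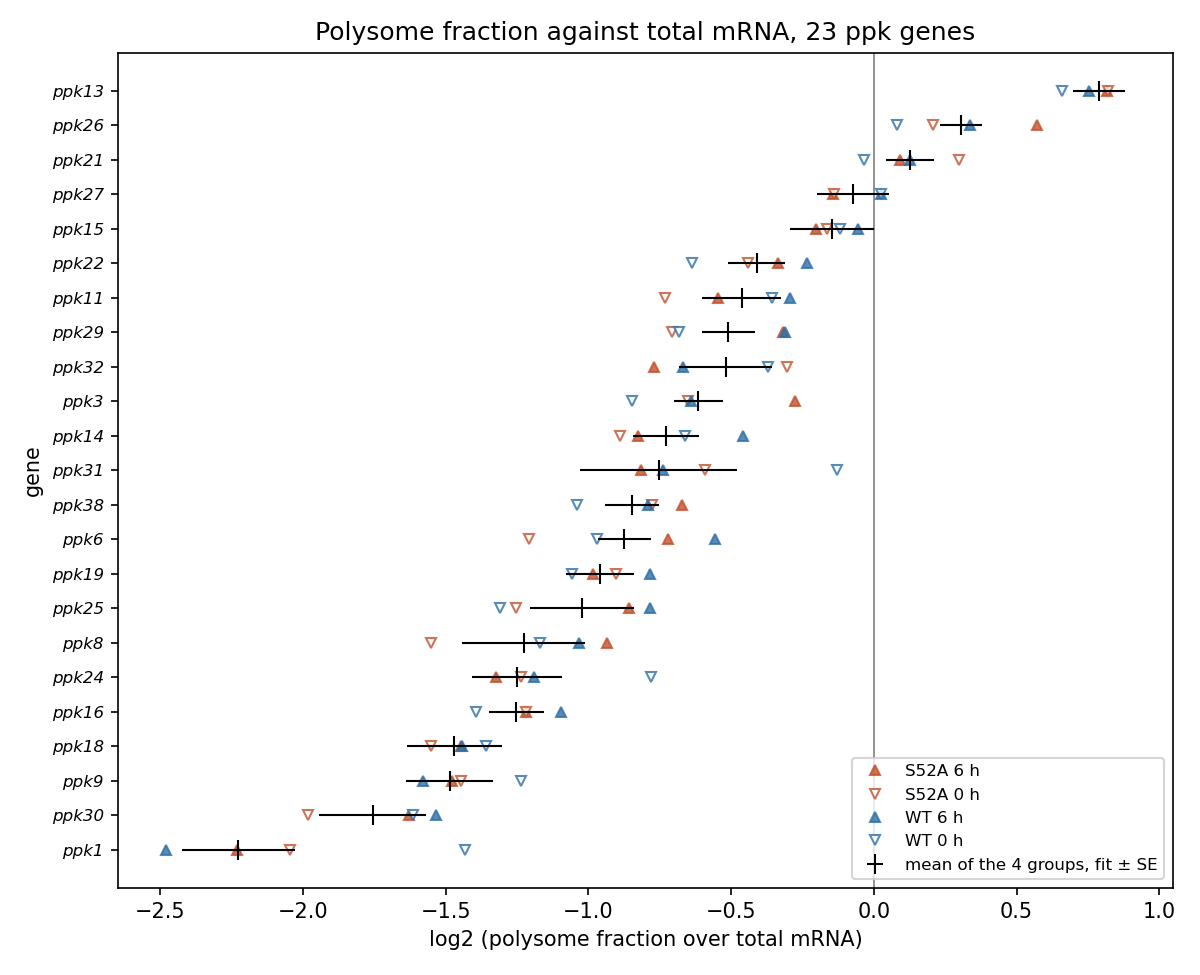
Log2 difference of polysome fraction over total mRNA for the 23 ppk genes; triangles give the log2(CPM + 1) difference in each strain and time group and bars the fitted mean of the 4 groups with its SE. The genes run from ppk13 at 0.79 to ppk1 at -2.23, and the 4 groups lie close together in most of them.

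Gene lengths and 5′-leaders were taken from the RefSeq annotation of ASM294v3, where all 23 identifiers were found. The ppk coding sequences are 939 to 5121 bases long (median 1770), beside a median of 1780 for the 82 other kinases and of 1146 for 5012 coding genes tested. Longer coding sequences went with lower polysome over total values, with a Spearman rho of -0.43 across the 23 ppk genes, -0.32 across the 82 other kinases and -0.52 across the 5012 coding genes. These are descriptions across genes measured in the same libraries.

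An annotated leader was present for 21 of the ppk genes, and it held at least 1 AUG (the letters ATG on the coding strand, in any frame) in 14, or 66.7%. The share was 64.9% for the other kinases and 36.3% for 4501 coding genes with a leader. The median leader was 147 bases in the ppk genes, 171 in the other kinases and 97 in all coding genes. ppk24 had 10 upstream AUGs in 440 bases, and ppk18, ppk22 and ppk25 had 4 each. ppk1 had the longest leader, 1213 bases with 2 upstream AUGs, and ppk15 had 1 in 582 bases. The median TE change from 0 h to 6 h of the 14 ppk genes with an upstream AUG was 0.10 in S52A cells and 0.20 in WT cells, and that of the 7 without one was 0.07 in S52A cells and 0.10 in WT cells. Over all coding genes the medians were 0.09 in S52A cells and 0.09 in WT cells with an upstream AUG, and -7e-04 in S52A cells and 0.03 in WT cells without one.

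ppk33 was read by its identifier, SPCC162.10, which stands beside the name cwf26 in the table. It had 8.78 and 8.84 CPM in total mRNA of S52A cells at 6 h, against 25.8 and 17.3 CPM in WT cells at 6 h. Both S52A values were lower, with a log2 difference of -1.29 ± 0.33 (SE; edgeR adjusted p = 0.13). In polysomes at 6 h it had 3.94 and 4.29 CPM in S52A cells, against 8.84 and 9.21 CPM in WT cells (log2 difference -1.13 ± 0.35, edgeR adjusted p = 0.13). In S52A total mRNA it had 8.78 and 8.84 CPM at 6 h, against 22.0 and 13.2 CPM at 0 h (log2 change -0.996 ± 0.33, edgeR adjusted p = 0.13). None of these 3 passed the edgeR test without a block. With the experiment as a block all 3 passed, the strain difference in total mRNA (adjusted p = 0.032, beside 1.59% of all genes called), that in polysomes (adjusted p = 0.046, beside 3.71%) and the change in S52A total mRNA (adjusted p = 0.041). DESeq2 called the 2 strain differences (adjusted p = 0.020 in total mRNA, beside 2.92% of all genes, and 0.049 in polysomes, beside 6.19%) and not the change in S52A total mRNA (adjusted p = 0.057). The row named ppk33 in the table, with the identifier SPCC1620.12c, had log2 differences between S52A and WT cells of -0.35 ± 0.18 in polysomes and -0.12 ± 0.17 in total mRNA at 6 h. Both rows were called lower in polysome fractions than in total mRNA (-1.33 ± 0.17 for SPCC162.10 and -0.59 ± 0.09 for SPCC1620.12c).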

How the data were processed

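Libraries were stranded and poly(A)-selected. The authors used STAR to align the read pairs to ASM294v2 and QoRTs to count them by gene and strand. Versions of STAR and QoRTs were not given in the sources used here. Whole-number counts as deposited, not normalized by the authors, were used. The deposited normalized table was not used. In 44 of the 7014 rows the gene name did not belong to the identifier, and values were read by identifier (29 rows gave no accession to check).

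Counts were scaled by TMM (factors 0.434 to 1.69), filtered with filterByExpr to 6170 genes and fitted in 1 model of 8 groups with edgeR 4.0.16 (R 4.3.3), using quasi-likelihood F-tests with Benjamini-Hochberg adjustment over all genes and a threshold of 0.05 in each of 12 comparisons. The standard error is the log2 change divided by the square root of F. The alternatives were DESeq2 1.42.0, its size factors in edgeR, library size alone, no filter, a replicate block, and leaving out each library.

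The labels give each replicate number as 1 experiment, and the numbers were taken to pair the samples across groups. Whether the cultures of an experiment were grown side by side is not stated. The main model leaves this pairing out, and the alternative with the replicate block includes it. Deviations from the group means correlated at a median of 0.302 (from -0.105 to 0.73) over 28 pairs of groups.

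The members, the kinase list and the tests were chosen with earlier results of these data known. Each member is named with a value. Values per library are given for members called in at least 1 comparison, or, where more than 10 were called, for the 4 largest rises and falls. Of other kinases up to 2 per comparison are named. ppk8, ppk25 and ppk33 were described in full after their values were seen. Lengths and leaders come from another assembly, ASM294v3, so no coordinates or sequences are given.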

Additional observations from a re-analysis of the deposited data

Results flagged for a closer look

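In 3 cases both experiments of one strain moved one way and both experiments of the other strain the opposite way. These differences between strains were not tested. In total mRNA the log2 change from 0 h to 6 h of ppk9 was -0.20 in S52A cells (-0.19 and -0.21 in experiments A and B) and 0.20 in WT cells (0.14 and 0.29). For ppk29 it was -0.064 in S52A cells (-0.05 and -0.09) and 0.05 in WT cells (0.01 and 0.09). The TE change of ppk19 was -0.047 in S52A cells (-0.03 and -0.12) and 0.30 in WT cells (0.36 and 0.24). Each of these changes missed the threshold in its own strain and was smaller than its SE. The SE was 0.29 for ppk9 and 0.19 for ppk29 in both strains. For ppk19 it was 0.34 in S52A cells and 0.33 in WT cells.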

How the results depend on the processing

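With library size alone, 14 ppk genes were called in S52A polysomes, 15 in WT polysomes and 1 between the strains in polysomes at 6 h, where that scaling also moved the median of all genes, and ppk13 and ppk26 reversed to -0.41 and -0.88 in polysome fractions over total mRNA. DESeq2 called 3 in S52A polysomes, 1 in S52A total mRNA and 6 in WT total mRNA. With the replicate block, which pairs the samples of an experiment, 3 were called in S52A polysomes, 8 in WT polysomes, 3 in S52A total mRNA and 7 in WT total mRNA, and no other count changed by over 1.5 times. Leaving out 1 library reversed the sign of 0 of the called member results. Of the called member results, the 8 changes over time lost the call in 25 of 32 leave-one-out fits, and the 20 differences of polysome fraction over total mRNA in 7 of 320. A left-out library leaves an arm with 1 sample, assumed to vary like the others. The share of all genes called in such fits was not counted, so lost calls are not particular to these genes by these values. Counting either row for ppk33, an alternative chosen after seeing the data, added 1 call in polysome fractions over total mRNA and none elsewhere in the edgeR fit without a block. With the block or DESeq2, the row SPCC162.10 was also called lower in S52A than WT cells at 6 h in both fractions. Low counts limit ppk31, with 2 to 297 per library.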
